A study of Homo sapiens with 48 samples.

Results

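FOXA1, HOXB13, GATA2, GRHL2, SPDEF and EHF are transcription factors of the luminal prostate epithelium, and their transcripts were followed through every RNA-Seq library of 22Rv1 prostate cancer cells grown in culture. The 6 genes were selected by symbol as a set of lineage factors. The rule itself used no measured value, but the set was chosen with earlier results of these data known. All 6 were found among the 61817 entries of the count table, and all 6 passed the filter on low counts that left 20009 genes for testing. The 48 libraries form 16 groups of 3, described by the study as biological triplicates.

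22Rv1 is a line of castration-resistant prostate cancer. The unmodified parent is called Rv1-WT, and a lentivirus for firefly luciferase turned it into Rv1-Luc. The other lines descend from 22Rv1 cells in which CDK8 and CDK19, the paralogous kinases of the transcriptional Mediator complex, were knocked out by CRISPR/Cas9. A lentivirus then gave back wild-type CDK8 (dKO-8), the D173A kinase-dead form of CDK8 (dKO-8M), wild-type CDK19 (dKO-19) or the D173A kinase-dead form of CDK19 (dKO-19M). The dKO-8 and dKO-8M lines were made from knockout cells that already held an empty vector. Each line received 0.1% DMSO as vehicle or 500 nM SNX631, an inhibitor of CDK8 and CDK19, for 72 hours. Rv1-WT and Rv1-Luc were treated both in fetal bovine serum (FBS) and in serum stripped of androgen by charcoal (CSS), whereas the 4 knockout-derived lines were treated in FBS only. Because each derived line stands for 1 derivation, a difference between lines cannot be told apart from a difference between derivations.

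Background on the members is as follows. FOXA1 is a forkhead pioneer factor that opens chromatin at prostate enhancers. HOXB13 is a posterior homeobox factor that marks the prostate and binds many of the same enhancers, and GATA2 is a zinc-finger factor that takes part in the transcriptional response to androgen. GRHL2 is a grainyhead-like factor that maintains epithelial junction genes. SPDEF and EHF are epithelial members of the ETS family, and both are associated with differentiated secretory cells.

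Promoter windows of RefSeq, on GRCh38.p14, were used for 4 of the 6 members, with 6 windows in all. GRHL2 was left out of the search because windows on its chromosome were not taken, and no window was used for HOXB13. The 6 windows were searched on both strands for the forkhead motif TGTTTAC. The same was done for the GATA motif with the letters AGATAA. The ETS motif was taken as CCGGAAG. For grainyhead factors the letters were AACCGGT. For HOXB13 itself the motif used was TCGTAAA. The androgen response half-site was searched as AGAACA. Only the second window of EHF held any of them. Its 250 bases before the start, chr11:34632316-34632565 on the plus strand, are shown because EHF is the member that varied most, with the GATA and forkhead motifs in capitals.

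EHF window 2: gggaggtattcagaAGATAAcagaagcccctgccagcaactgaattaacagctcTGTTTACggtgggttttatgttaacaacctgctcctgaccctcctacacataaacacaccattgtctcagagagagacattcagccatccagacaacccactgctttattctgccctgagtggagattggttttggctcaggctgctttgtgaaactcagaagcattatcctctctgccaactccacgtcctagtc

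The GATA motif begins at position -236 and the forkhead motif at position -196 from the annotated start. Over all 35116 promoter windows of the same length, 10.3% held the GATA motif and 3.42% held the forkhead motif. The ETS motif was in 10.3% of windows, the grainyhead motif in 0.772%, the HOXB13 motif in 0.541% and the androgen response half-site in 14.8%. These matches describe the letters of a window and no binding was measured.

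In the GRCh38 assembly with GENCODE 29, FOXA1 lies on the minus strand at chr14:37589984-37596059, HOXB13 on the minus strand at chr17:48724763-48729178 and GATA2 on the minus strand at chr3:128479427-128493185. GRHL2 lies on the plus strand at chr8:101492432-101669726, SPDEF on the minus strand at chr6:34537802-34556333 and EHF on the plus strand at chr11:34621093-34661057. All are protein-coding. The deposited values are estimated counts per gene, and the annotation release used to count them is not given in the sources used.

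Library totals ran from 13.2 M to 31.5 M counts (M for mega) with a median of 21.4 M. The Rv1-WT libraries, at 13.2 M to 18.2 M, were all smaller than the Rv1-Luc libraries, at 19.5 M to 27.3 M, so that subline and preparation cannot be told apart. Luminal markers were abundant, with 13 of 18 above a median of 10 CPM, whereas the summed level of 8 basal markers never exceeded 10.6 CPM in any library. The summed level of 8 neuroendocrine markers ran from 67.8 to 246 CPM. Of these, 3 were above a median of 10 CPM (ENO2, SYP and CHGB) and 4 were under 1 CPM. Of the secretory markers, KLK4 had a median of 28.9 CPM, KLK3 of 4.55 CPM and MSMB of 0.262 CPM, and the channel gene TRPM8 had a median of 0. CDK8 stood at 60.5 to 71.4 CPM in dKO-8 and at 118 to 134 CPM in dKO-8M, against 25.4 to 28.3 CPM in Rv1-WT. CDK19 stood at 469 to 519 CPM in dKO-19 and at 298 to 360 CPM in dKO-19M, against 148 to 281 CPM in Rv1-WT. These are transcript levels. By Western blot, the study found less CDK8 protein in dKO-8 than in parental cells. It found much more CDK19 protein in dKO-19 and dKO-19M. In comparisons of replicates over all genes, replicate 1 of dKO-19M under vehicle stood apart, since its chi-square statistic divided by the degrees of freedom came to 16.5 against replicate 2 and 15.97 against replicate 3, whereas those 2 gave 1.43. Among the 48 pairs the median was 2.04, and the pair next in size, at 9.15, was replicates 1 and 2 of the vehicle libraries of Rv1-Luc in FBS. Endogenous and introduced transcripts were not separated, and a knockout need not remove the transcript, since CDK19 was still at 101 to 135 CPM in dKO-8. Immunoglobulin and other plasma cell transcripts were counted in every Rv1-Luc library, at a summed 3.86 to 35.5 CPM over 8 markers, and did not exceed 0.702 CPM in the libraries of any other line.

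Levels are given as CPM, the count of a gene scaled to a library of 1 M counts after TMM scaling. A difference was tested with the quasi-likelihood test of edgeR in 1 fit over all 48 libraries, with Benjamini-Hochberg adjustment over all 20009 genes (FDR). A member is said to have risen or fallen where FDR was below 0.01, and is called where the change also exceeded 1.5-fold. In cultured cells measured in bulk, fewer cells that carry a transcript and less of it per cell cannot be told apart.

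Per kilobase of exon as annotated in GENCODE 29, FOXA1 was the most abundant member at a mean of 210.3 CPM per kb over all libraries. HOXB13 followed at 72.8 CPM per kb, SPDEF at 65.0, EHF at 38.4, GRHL2 at 26.3 and GATA2 at 15.8 CPM per kb. The range over the 16 group means was narrowest for HOXB13, at 1.77-fold, and widest for EHF, at 8.23-fold. FOXA1 spanned 2.14-fold, GRHL2 2.40-fold, SPDEF 2.41-fold and GATA2 2.98-fold.

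**Figure D1:**
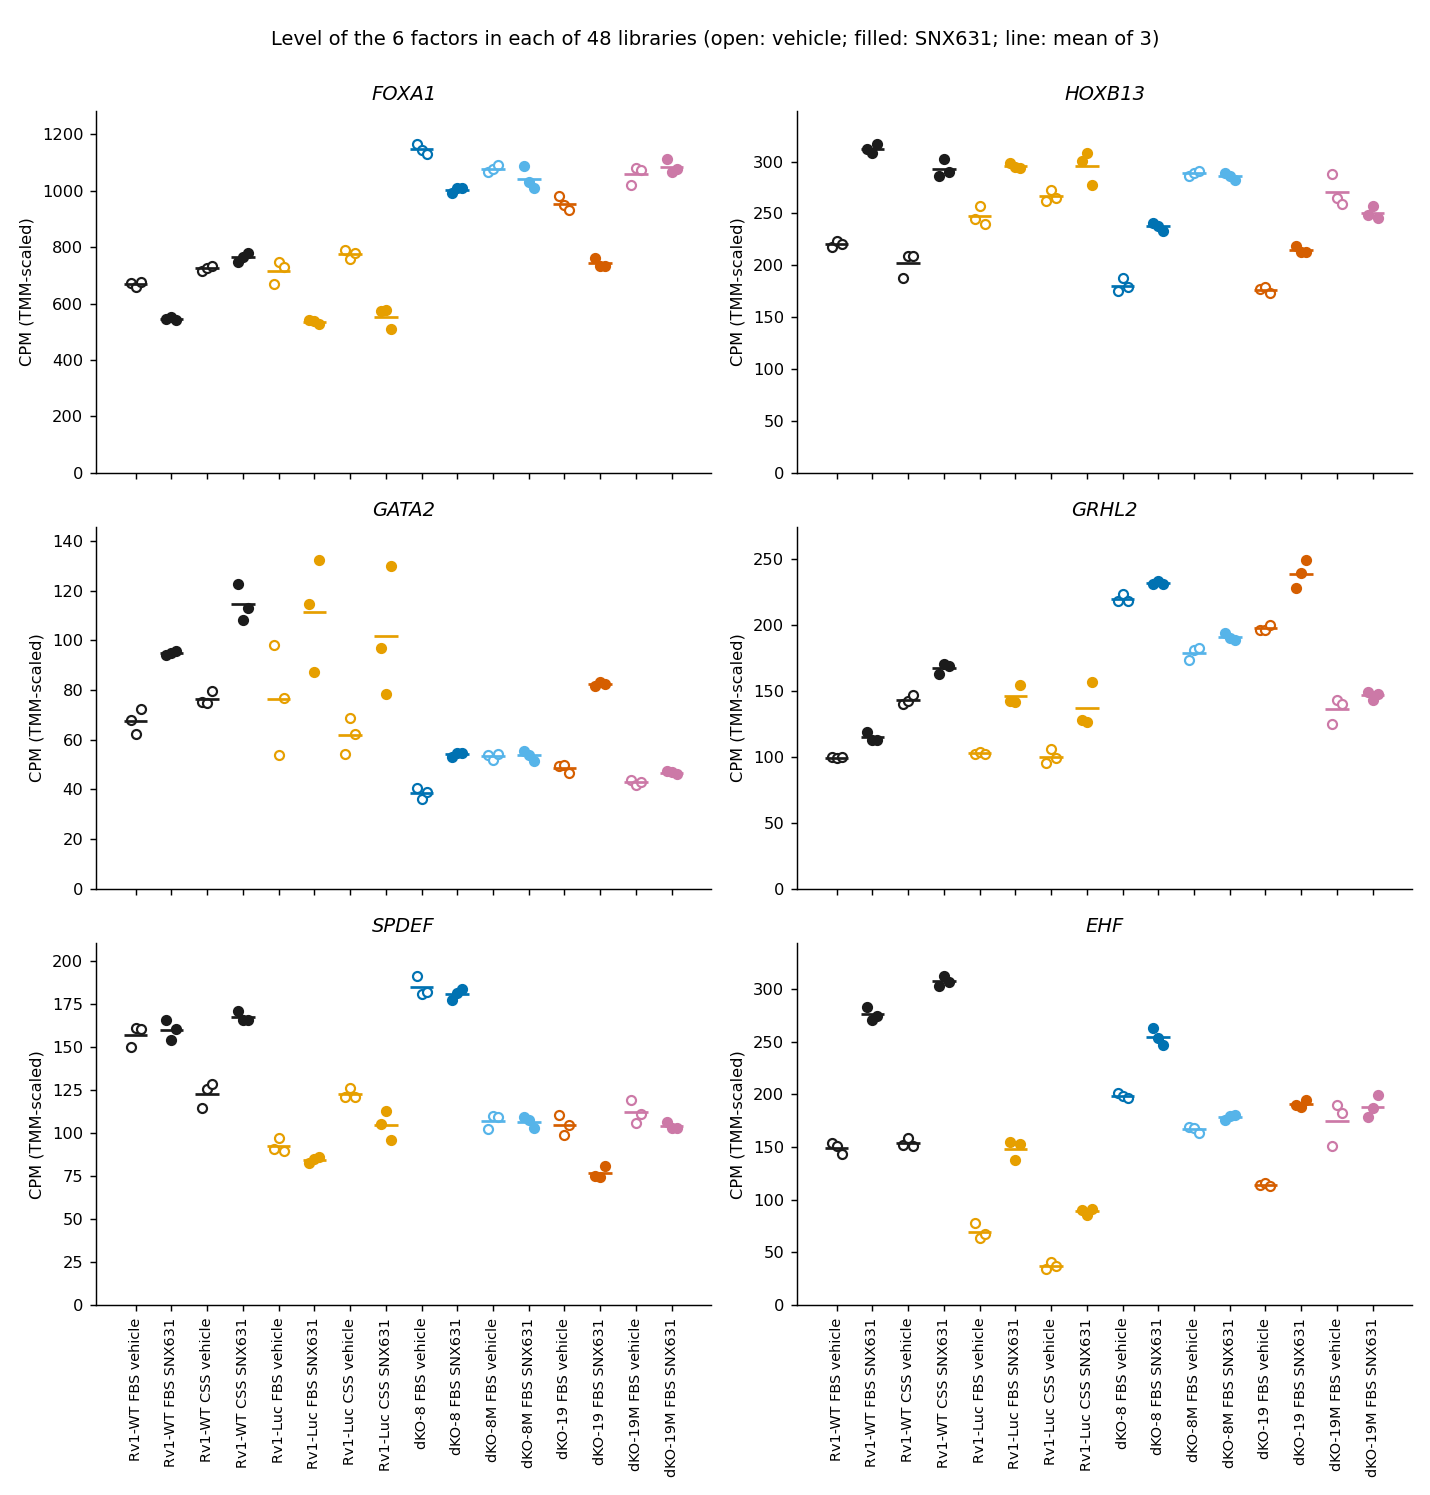
CPM of the 6 factors (y axes, linear from 0) in each of the 48 libraries, by group (x axis), with open points for vehicle, filled points for SNX631 and a line for the mean of 3 libraries. FOXA1 was at least 732 CPM in every knockout-derived library, GATA2 scattered widely within the Rv1-Luc groups, and EHF ran from 37.3 CPM in Rv1-Luc in CSS under vehicle to 307 CPM in Rv1-WT in CSS under SNX631.

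The 6 members did not order the groups alike. FOXA1 was highest in dKO-8 under vehicle (1147 ± 18.9 CPM, SD, n = 3) and lowest in Rv1-Luc in FBS under SNX631 (535 ± 7.78 CPM). Its 24 knockout-derived libraries lay between 732 and 1166 CPM, with a median of 1049 CPM, and the 24 Rv1-WT and Rv1-Luc libraries lay between 508 and 790 CPM with a median of 674 CPM. GATA2 was lowest in that same group, dKO-8 under vehicle (38.5 ± 2.21 CPM), and highest in Rv1-WT in CSS under SNX631 (115 ± 7.34 CPM), which ranked 9 of 16 for FOXA1. Over the 16 group means of log2 CPM, FOXA1 and GATA2 had a Pearson correlation of -0.88, the strongest among the 15 pairs of members. The groups share lines and library depths, and the value is a description. GRHL2 and EHF had a correlation of 0.52, FOXA1 and GRHL2 likewise 0.52, and HOXB13 and GATA2 0.48, while SPDEF reached at most 0.39, with EHF.

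HOXB13 was highest in Rv1-WT in FBS under SNX631 (312 ± 4.63 CPM) and lowest in dKO-19 under vehicle (176 ± 2.78 CPM), with dKO-8 under vehicle next (181 ± 6.22 CPM). GRHL2 was highest in dKO-19 under SNX631 (239 ± 10.5 CPM) and lowest in Rv1-WT in FBS under vehicle (99.6 ± 0.538 CPM), a level that overlapped Rv1-Luc in CSS under vehicle but not in FBS. SPDEF was highest in dKO-8 (185 ± 5.69 CPM under vehicle) and lowest in dKO-19 under SNX631 (76.8 ± 3.39 CPM). Many neighbours in these orders overlapped in range. Of the 15 neighbouring pairs of groups, 9 did not overlap for EHF, 8 for GRHL2, 5 each for HOXB13, GATA2 and SPDEF, and 4 for FOXA1. The groups were ordered by the same values, and no such count was made for other genes. These numbers only describe the orders.

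The first question was how inhibition of CDK8 and CDK19 bore on the lineage factors. In the 6 settings with an active kinase (Rv1-WT and Rv1-Luc in either serum, dKO-8 and dKO-19), EHF and HOXB13 rose in 6 of 6 settings, GRHL2 rose in 5, GATA2 rose in 4, and FOXA1 fell in 5. SPDEF moved in both directions, rising in 1 setting and falling in 2. EHF had the widest range, with log2 fold changes of 0.36 to 1.26, and was called in 5 of the 6 settings. GATA2 was called in 2, and no other member was called in any setting.

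**Figure D2:**
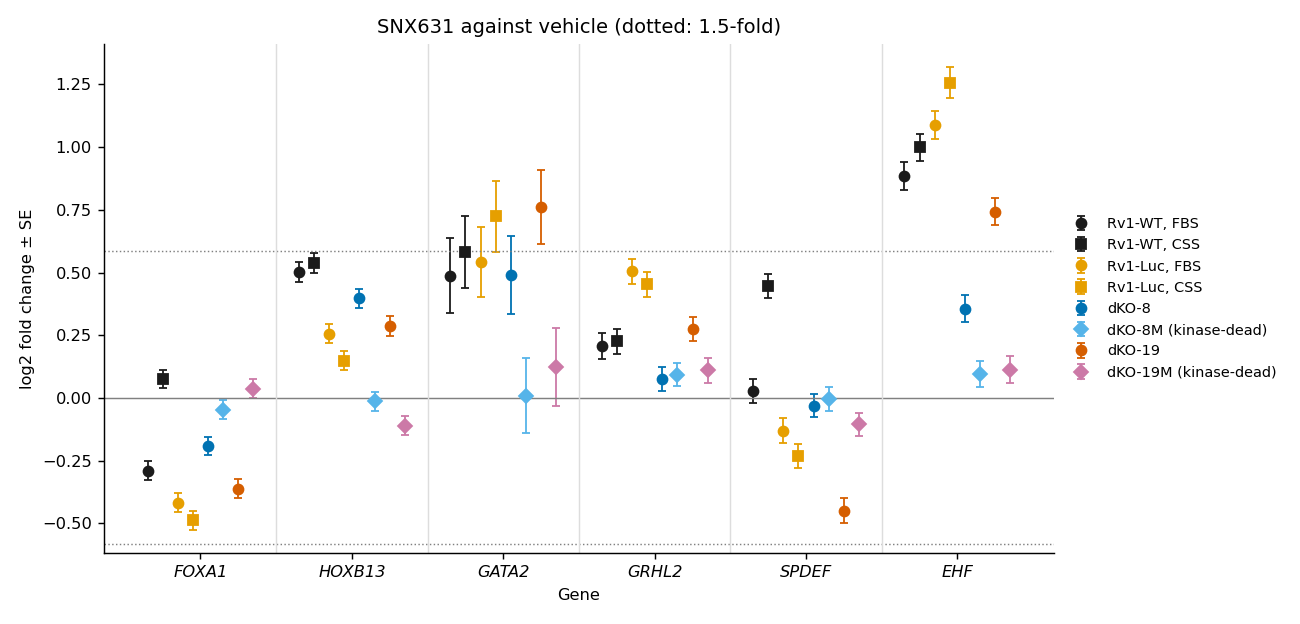
Log2 fold change of SNX631 against vehicle (y axis, ± SE) for each factor (x axis) in the 8 settings, with squares for CSS, diamonds for the kinase-dead lines and dotted lines at 1.5-fold. EHF lies between 0.36 and 1.26 in the settings with an active kinase, and every factor lies within 0.13 of 0 in dKO-8M and dKO-19M.

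In Rv1-WT in FBS, 4 of 6 members passed the FDR limit, against 8.78% of all genes tested, and 1 of 6 was called, against 2.39%. EHF stood at 154, 151 and 144 CPM under vehicle and at 283, 270.3 and 274 CPM under SNX631. Each treated library was above each control, and the change was 1.85-fold (log2 0.88, SE 0.055, FDR = 5.1e-19 by edgeR). HOXB13 went from 217, 224 and 221 CPM to 312, 308 and 317 CPM, a 1.42-fold rise without overlap (FDR = 1.8e-15 by edgeR). FOXA1 went from 672, 657 and 675 CPM to 547, 553 and 539.9 CPM, and thus fell by 18.2% (FDR = 2.8e-08 by edgeR). GRHL2 rose by 15.5% (FDR = 0.0029 by edgeR), and SPDEF differed by 1.88% with overlapping libraries (FDR = 0.78 by edgeR). Beside these changes, the summed level of the 18 luminal markers was 2929 to 2976 CPM under vehicle and 3483 to 3628 CPM under SNX631. Of 17 luminal markers tested, 4 were called higher and 3 lower (2.39% of all genes). The summed level of the 8 basal markers was 2.48 to 3.44 CPM under vehicle and 8.04 to 9.59 CPM under SNX631. The defining basal genes KRT5 and KRT14 had medians of 0 over all libraries and TP63 one of 0.0451 CPM. The highest basal markers over all libraries were CAV1, at up to 8.74 CPM, and KRT15, at up to 3.66 CPM. The sum of 8 mesenchymal markers was 105 to 116 CPM under vehicle and 211 to 251 CPM under SNX631, and SNAI2 and ZEB2 had medians of 0. Of 7 mesenchymal markers tested, 2 were called higher (2.39% of all genes). Over all libraries FN1 reached 209 CPM and the next highest marker, TWIST1, 46.2 CPM. Luminal and basal sums were also higher under SNX631 in the other settings with an active kinase. Basal sums were, for example, 1.86 to 2.36 against 8.97 to 10.6 CPM in Rv1-Luc in CSS. In dKO-8 they were 1.02 to 1.57 against 3.13 to 3.40 CPM. Mesenchymal sums were higher in those settings too, except in dKO-8. There they overlapped, at 42.8 to 47.4 CPM under vehicle and 43.8 to 50.8 CPM under SNX631. Of 7 mesenchymal markers tested in dKO-8, 0 were called (1.71% of all genes). The part of these markers in the members' changes was not tested.

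In Rv1-WT in CSS, 5 of 6 members passed the FDR limit (17.6% of all genes) and 1 was called (4.23%). EHF was 152, 158 and 151 CPM under vehicle and 303, 312 and 306 CPM under SNX631, a 2.00-fold rise (FDR = 7.9e-22 by edgeR). HOXB13 rose 1.45-fold (FDR = 5.7e-17 by edgeR) and GRHL2 by 16.9% (FDR = 0.00027 by edgeR). SPDEF rose here, from 114, 126 and 128.3 CPM to 171, 166 and 166 CPM, or 1.36-fold (FDR = 2.9e-11 by edgeR). FOXA1 did not pass in this setting, at 717, 726 and 734 CPM under vehicle and 748, 766 and 779 CPM under SNX631 (log2 0.08, FDR = 0.14 by edgeR). The difference between the SNX631 effects in CSS and in FBS passed the FDR limit for both of these genes, at log2 0.37 for FOXA1 (FDR = 3.9e-06 by edgeR) and 0.42 for SPDEF (FDR = 2.4e-05 by edgeR). Of all genes, 1.38% passed that limit, and none of the 6 members was called in that comparison (0.295% of all genes). For EHF the difference was 0.12, with a 95% interval of -0.04 to 0.27.

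In Rv1-Luc, EHF rose from a lower level. In FBS, EHF was at 77.9, 63.5 and 67.8 CPM under vehicle and 155, 138 and 153 CPM under SNX631, a 2.12-fold change (FDR = 9.2e-23 by edgeR). In CSS, it went from 34.6, 40.5 and 37.0 CPM to 90.1, 85.8 and 91.3 CPM, or 2.39-fold (FDR = 1.1e-23 by edgeR). The treated and control libraries did not overlap in either serum. In FBS, 5 of 6 members passed the FDR limit (13.2% of all genes) and 1 was called (3.67%), and in CSS 6 of 6 passed (15.8%) and 2 were called (4.06%), EHF and GATA2. FOXA1 fell by 25.2% in FBS (FDR = 1.2e-13 by edgeR) and fell by 28.7% in CSS (FDR = 4.2e-16 by edgeR), and GRHL2 rose 1.42-fold and 1.37-fold. HOXB13 rose by 19.4% in FBS and 10.8% in CSS. The rise of HOXB13 in FBS was smaller than in Rv1-WT, with a difference of log2 effects of -0.25 (FDR = 0.0072 by edgeR, against 0.655% of all genes). None of the 6 members was called for that difference (0.18% of all genes), and the difference for EHF was 0.20, with a 95% interval of 0.04 to 0.36 and FDR = 0.23 by edgeR. SPDEF fell by 14.8% in CSS (FDR = 0.00014 by edgeR). Within Rv1-Luc, no member's SNX631 effect in CSS differed from that in FBS at the FDR limit (0.17% of all genes), and the smallest FDR among the 6 was 0.52 by edgeR.

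GATA2 needs a separate account, because its libraries scattered in Rv1-Luc. Under vehicle in FBS, its 3 Rv1-Luc libraries stood at 98.1, 53.9 and 77.0 CPM, a coefficient of variation of 28.97%, and under SNX631 at 115, 87.0 and 132 CPM. The treated and control libraries overlapped. In CSS they stood at 54.3, 68.8 and 62.2 CPM under vehicle and at 96.8, 78.3 and 130 CPM under SNX631, without overlap. In Rv1-WT in FBS, by contrast, GATA2 was at 67.9, 62.4 and 72.5 CPM under vehicle and 94.1, 94.7 and 95.5 CPM under SNX631. In Rv1-WT in CSS it was at 75.0, 74.8 and 79.4 CPM and then 123, 108 and 113 CPM. Only 0.145% of all genes had a wider spread in the fit. The summed plasma cell markers of the 3 vehicle libraries in FBS were 28.8, 35.5 and 17.0 CPM in the same order as the GATA2 values above, and 5.27, 15.8 and 3.86 CPM under SNX631, so that in FBS the library with the most marker RNA had the least GATA2. In CSS the sums were 3.94, 5.23 and 3.88 CPM under vehicle and 28.6, 15.9 and 8.57 CPM under SNX631, and that order did not recur. Their part in the spread was not tested.

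Since 1 estimate of the spread served all lines, that of GATA2 was carried into every comparison. GATA2 rose 1.65-fold in Rv1-Luc in CSS (log2 0.72, SE 0.14, FDR = 0.00020 by edgeR) and 1.70-fold in dKO-19 (log2 0.76, SE 0.15, FDR = 0.00021 by edgeR), and both were calls. It rose 1.46-fold in Rv1-Luc in FBS (log2 0.54, FDR = 0.0041 by edgeR) and 1.50-fold in Rv1-WT in CSS (log2 0.58, FDR = 0.0023 by edgeR), just under the fold limit. In Rv1-Luc in FBS, leaving out 1 library moved the value between log2 0.34, without replicate 2 of the vehicle libraries, and 0.77, without replicate 1, where it became a call. It also became a call, at 0.69, without replicate 2 of the SNX631 libraries. Without any one of the other 4 libraries it missed the FDR limit. In Rv1-WT in FBS the change was 1.40-fold with FDR = 0.023 by edgeR, and in dKO-8 it was 1.41-fold with FDR = 0.030 by edgeR. With the edgeR fit restricted to the libraries compared, FDR was 0.34 in Rv1-Luc in FBS and 0.11 in Rv1-Luc in CSS, but 7.0e-09 in Rv1-WT in FBS, 1.7e-11 in Rv1-WT in CSS, 3.2e-11 in dKO-8 and 3.5e-16 in dKO-19. Without replicate 3 of the SNX631 libraries in CSS, the Rv1-Luc value dropped to log2 0.51 and was no longer a call.

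EHF also rose in the knockout-derived lines with an active kinase. In dKO-8, EHF was at 201, 199 and 197 CPM under vehicle and at 263, 253 and 247 CPM under SNX631. The groups did not overlap, and the rise was 1.28-fold (FDR = 7.0e-07 by edgeR), under the fold limit. In dKO-19 it went from 114, 116 and 113 CPM to 190.2, 188 and 195 CPM, a called rise of 1.67-fold (FDR = 1.8e-16 by edgeR). The effect in dKO-19 exceeded that in dKO-8 by log2 0.39 (FDR = 0.00043 by edgeR). In dKO-8, 3 of 6 members passed the FDR limit (7.76% of all genes) and 0 were called (1.71%), and in dKO-19 6 of 6 passed (13.2%) and 2 were called (3.41%).

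FOXA1 fell by 12.5% in dKO-8 (FDR = 0.00011 by edgeR) and fell by 22.2% in dKO-19 (FDR = 1.4e-11 by edgeR), while HOXB13 rose 1.32-fold and 1.22-fold. SPDEF separated the lines. It stood at 191, 181 and 182 CPM under vehicle and 177, 181 and 184 CPM under SNX631 in dKO-8, with overlap, and at 110.4, 98.9 and 105 CPM and then 75.0, 74.6 and 80.7 CPM in dKO-19, where it fell by 26.8% (FDR = 8.1e-11 by edgeR). The difference of the SPDEF effects, dKO-19 minus dKO-8, was log2 -0.42 (FDR = 1.2e-05 by edgeR). In this comparison of effects 2 of 6 members passed the FDR limit (2.43% of all genes) and 0 were called (0.885%). GATA2 differed there by log2 0.27 without passing. Its FDR was 0.0014 by edgeR fitted to the compared libraries only, and 0.51 by DESeq2.

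SNX631 was also given to the kinase-dead lines. These differ from the active lines in kinase activity, in derivation and in CDK8 or CDK19 transcript level, which cannot be told apart. No member passed the FDR limit in dKO-8M (0.15% of all genes) or in dKO-19M (0.955%), and none was called (0.015% and 0.09%). At an unadjusted p under 0.05, edgeR gave 0 members in dKO-8M and 4 in dKO-19M (HOXB13, SPDEF, GRHL2 and EHF), and DESeq2 also called none. The share of all genes with such a p was not worked out. Of these 4 in dKO-19M, HOXB13 and SPDEF were lower under SNX631, and GRHL2 and EHF were higher. HOXB13 thus went against its direction in the settings with an active kinase. The smallest FDR by edgeR was 0.54 in dKO-8M, for GRHL2, and 0.11 in dKO-19M, for HOXB13. EHF was at 169, 168 and 163 CPM under vehicle and 176, 179 and 181 CPM under SNX631 in dKO-8M (log2 0.10, 95% interval -0.01 to 0.20), and the groups did not overlap. In dKO-19M it was at 151, 189.6 and 183 CPM and then 179, 187 and 199 CPM (log2 0.11, 95% interval 0.00 to 0.22), with overlap. FOXA1 differed by log2 -0.05 in dKO-8M and 0.04 in dKO-19M.

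The SNX631 effect in dKO-19 was compared directly with that in dKO-19M, where 4 of 6 members passed the FDR limit (5.66% of all genes) and 1 was called (2.07%). The called member was EHF, with a difference of log2 0.63 (SE 0.076, FDR = 7.8e-09 by edgeR). HOXB13 differed by 0.40 (FDR = 2.3e-07 by edgeR), FOXA1 by -0.40 (FDR = 6.1e-08 by edgeR) and SPDEF by -0.34 (FDR = 0.00023 by edgeR). GATA2 had the largest estimate, at 0.64, but with SE 0.22 and FDR = 0.055 by edgeR. Between dKO-8 and dKO-8M, 1 of 6 members passed (3.31% of all genes), HOXB13 at 0.41 (FDR = 2.1e-07 by edgeR), and 0 were called (0.905%). EHF differed there by 0.26, with a 95% interval of 0.11 to 0.41 and FDR = 0.022 by edgeR. GATA2 differed there by 0.48 without passing. Its FDR was 4.8e-08 by edgeR fitted to the compared libraries only, and 0.093 by DESeq2. Without replicate 2 of the dKO-19M vehicle libraries, the EHF difference between dKO-19 and dKO-19M was 0.57 and no longer above 1.5-fold. Without replicate 1, the library that stood apart, it was 0.72, and the EHF effect in dKO-19M itself was 0.02. The HOXB13 difference was then 0.35 and its effect in dKO-19M -0.06.

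The second question was how the members responded to androgen-depleted serum. In Rv1-WT under vehicle, 4 of 6 members passed the FDR limit, against 36.2% of all genes, and 0 were called, against 10.9%. GRHL2 rose 1.44-fold, from 99.8, 98.9 and 99.9 CPM in FBS to between 140.0 and 147 CPM in CSS (FDR = 4.4e-13 by edgeR). SPDEF fell by 21.9% (FDR = 6.8e-09 by edgeR), HOXB13 fell by 8.56% (FDR = 0.0061 by edgeR), and FOXA1 rose by 8.61% (FDR = 0.0075 by edgeR). EHF was at 144 to 154 CPM in FBS and 151 to 158 CPM in CSS, with overlap (log2 0.04, 95% interval -0.07 to 0.15). Under SNX631, 2 of 6 passed (31.3% of all genes) and 0 were called (7.83%): GRHL2 rose 1.46-fold and FOXA1 1.40-fold. GATA2 did not pass, at log2 0.18 under vehicle and 0.27 under SNX631. With edgeR fitted to the compared libraries only, its FDR was 0.0038 under vehicle and 1.3e-05 under SNX631. DESeq2 gave it FDR = 0.32 and 0.099.

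**Figure D3:**
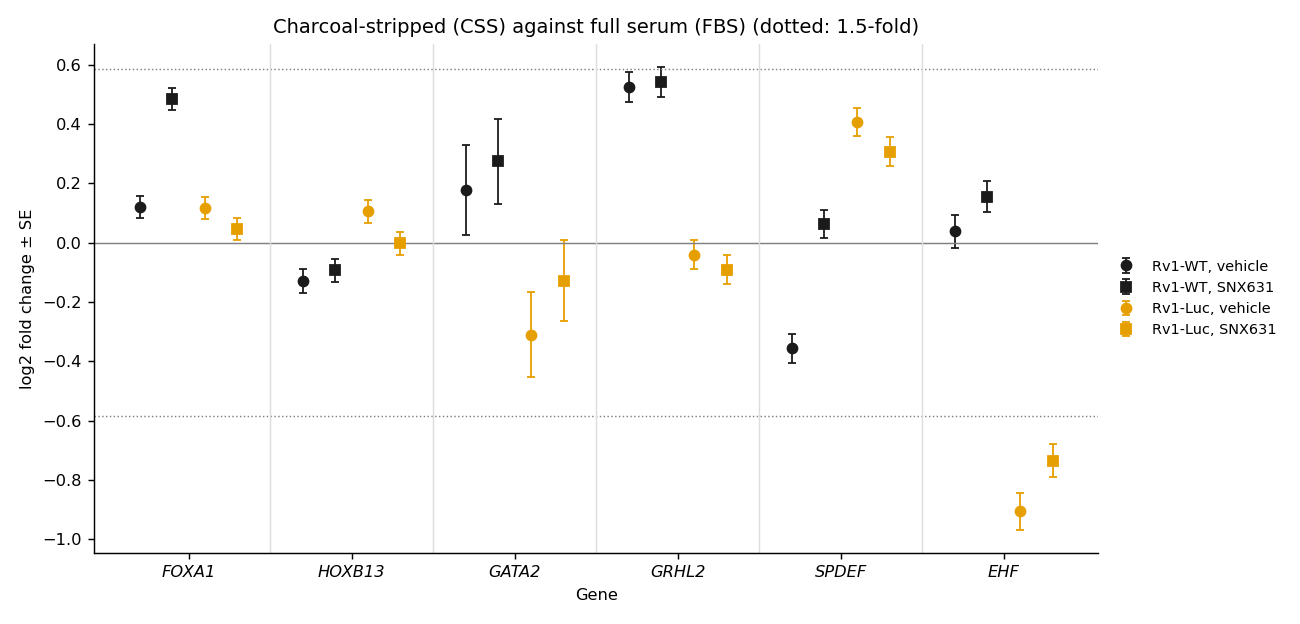
Log2 fold change of CSS against FBS (y axis, ± SE) for each factor (x axis) in Rv1-WT and Rv1-Luc under vehicle (circles) and SNX631 (squares), with dotted lines at 1.5-fold. EHF fell in Rv1-Luc, by 0.91 under vehicle and 0.74 under SNX631, and SPDEF under vehicle moved in opposite directions in the 2 sublines.

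In Rv1-Luc under vehicle, 2 of 6 members passed the FDR limit (7.94% of all genes) and 1 was called (1.49%). EHF went from 63.5 to 77.9 CPM in FBS to 34.6 to 40.5 CPM in CSS and thus fell by 46.6% (log2 -0.91, SE 0.062, FDR = 3.3e-17 by edgeR). SPDEF rose 1.33-fold, from 89.8, 90.9 and 97.3 CPM to 121, 121 and 126 CPM (FDR = 2.4e-09 by edgeR). The same 2 members passed under SNX631 (7.06% of all genes), where EHF fell by 39.9% and was again called (1.51%), and SPDEF rose 1.24-fold. In neither subline did the libraries of the 2 sera overlap for SPDEF under vehicle. Beside the fall of EHF in Rv1-Luc, the summed plasma cell markers were 17.0 to 35.5 CPM in FBS and 3.88 to 5.23 CPM in CSS under vehicle. Under SNX631, where EHF also fell, they went the other way, from 3.86 to 15.8 CPM in FBS to 8.57 to 28.6 CPM in CSS. Their part in the result was not tested.

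The serum effect itself was compared between the sublines under vehicle. Here 4 of 6 members passed the FDR limit, against 25% of all genes, and 2 were called, against 8.65%. EHF differed by log2 -0.94 (SE 0.083, FDR = 1.2e-13 by edgeR) and SPDEF by 0.76 (SE 0.068, FDR = 6.1e-14 by edgeR). GRHL2 differed by -0.56 (FDR = 3.5e-09 by edgeR) and HOXB13 by 0.24 (FDR = 0.00055 by edgeR). For FOXA1 the difference was 0.00, with a 95% interval of -0.11 to 0.11.

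The lines were then compared under vehicle in FBS. Rv1-Luc differed from Rv1-WT in 3 of 6 members at the FDR limit (41.8% of all genes) and in 2 calls (17.8%). EHF was 2.14-fold lower in Rv1-Luc (FDR = 2.8e-23 by edgeR) and SPDEF 1.70-fold lower (FDR = 1.7e-20 by edgeR), at 89.8 to 97.3 CPM against 150.2 to 161 CPM. HOXB13 was 12.2% higher (FDR = 0.00032 by edgeR). Beside these differences, 6 of 7 tested mesenchymal markers were called lower in Rv1-Luc (median log2 -2.23, summed 36.2 to 40.7 CPM against 105 to 116 CPM). Of 7 tested plasma cell markers, 6 were called higher (median log2 8.84, summed 17.0 to 35.5 CPM against at most 0.353 CPM), and their part in the result was not tested. FOXA1, GATA2 and GRHL2 differed by 7.03%, 12.96% and 3.47%, and none of them passed the FDR limit.

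**Figure D4:**
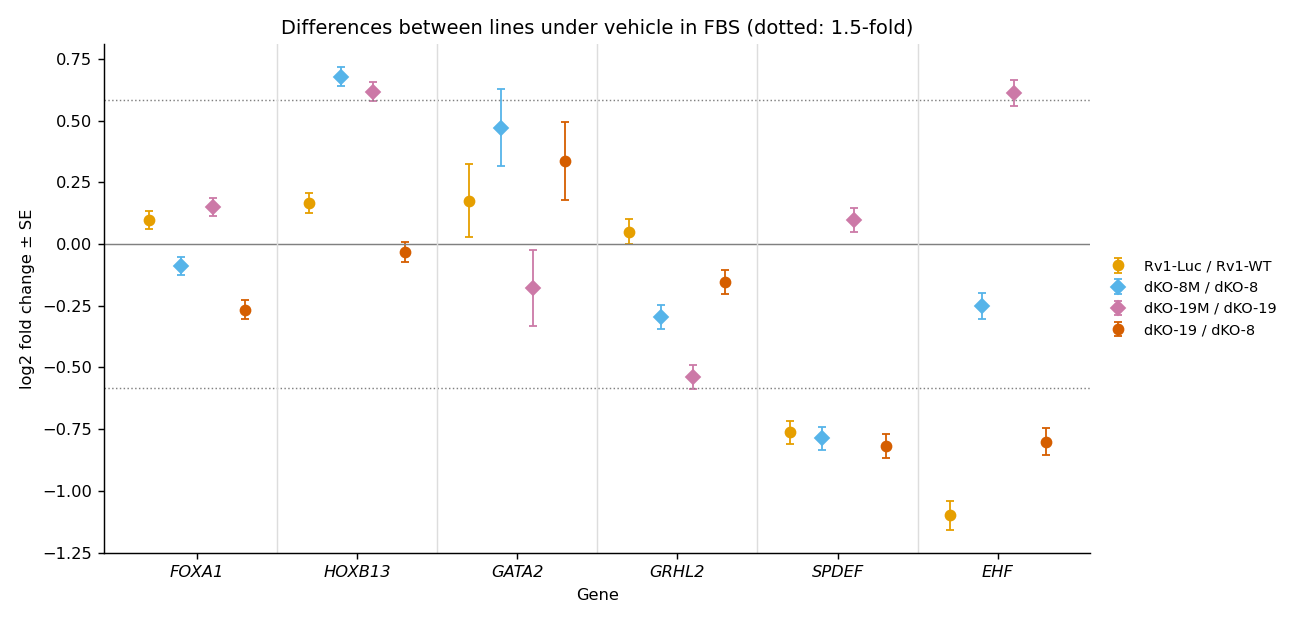
Log2 fold change between lines under vehicle in FBS (y axis, ± SE) for each factor (x axis), with diamonds for kinase-dead against active lines and dotted lines at 1.5-fold. HOXB13 was higher in both kinase-dead lines, SPDEF was 1.73-fold lower in dKO-8M, and EHF was 1.53-fold higher in dKO-19M.

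HOXB13 was the member that differed in the same direction in both kinase-dead lines with a call. It stood at 286, 289 and 291 CPM in dKO-8M and 175, 187 and 179 CPM in dKO-8, or 1.60-fold higher (FDR = 1.1e-21 by edgeR). It stood at 288, 265 and 259 CPM in dKO-19M and 177, 179 and 173 CPM in dKO-19, or 1.53-fold higher (FDR = 5.0e-20 by edgeR). SNX631 raised HOXB13 in the active lines in the same direction, and those comparisons share the vehicle libraries of dKO-8 and dKO-19, so the values are set side by side only. GRHL2 was lower in both kinase-dead lines, with a difference of -18.6% in dKO-8M (FDR = 8.9e-07 by edgeR) and of -31.2% in dKO-19M (FDR = 3.1e-14 by edgeR), although SNX631 raised it in dKO-19. SPDEF was 1.73-fold lower in dKO-8M (102, 109.7 and 109 CPM against 191, 181 and 182 CPM, FDR = 3.6e-21 by edgeR) and differed by log2 0.10 in dKO-19M (FDR = 0.11 by edgeR). EHF differed by -15.9% in dKO-8M (FDR = 0.00016 by edgeR) and was 1.53-fold higher in dKO-19M (FDR = 7.4e-14 by edgeR). FOXA1 was higher by 10.9% in dKO-19M (FDR = 0.0011 by edgeR). GATA2 differed by log2 0.47 in dKO-8M without passing. Its FDR there was 5.3e-11 by edgeR fitted to the compared libraries only, and 0.0034 by DESeq2. In dKO-19M GATA2 differed by log2 -0.18, with FDR = 0.046 by that edgeR fit and 0.35 by DESeq2.

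In dKO-8M, 4 of 6 members passed the FDR limit (21.8% of all genes) and 2 were called (7.02%), and in dKO-19M 4 of 6 passed (24%) and 2 were called (7.6%). The call of HOXB13 in dKO-19M did not hold without replicate 1 of the dKO-19M vehicle libraries (log2 0.56), the library that stood apart, and that of EHF did not hold without replicate 2 (log2 0.55) or replicate 3 (log2 0.58). Without replicate 1, the EHF difference was 0.70. The vehicle libraries of dKO-8 and dKO-19 also entered the next comparison. Between the active lines, dKO-19 had less SPDEF (1.76-fold, FDR = 1.1e-21 by edgeR) and less EHF (1.74-fold, FDR = 5.2e-18 by edgeR) than dKO-8. FOXA1 differed by -16.8% (FDR = 4.5e-08 by edgeR) and GRHL2 by -10.1% (FDR = 0.0082 by edgeR). Thus 4 of 6 members passed (23.8% of all genes) and 2 were called (6.51%). GATA2 was higher in dKO-19 by log2 0.34 without passing. Its FDR was 2.2e-06 by edgeR fitted to the compared libraries only, and 0.049 by DESeq2.

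The gene whose group means most resembled those of EHF was ELF5, another epithelial ETS factor and its neighbour on chromosome 11. Among 11486 genes with a mean of at least 5 CPM, ELF5 had the highest Pearson correlation with EHF over the 16 group means, 0.96. ELF5 lies on the minus strand at chr11:34478793-34513805, with 107.3 kb and 0 protein-coding genes between the 2 genes. It was a low transcript, at a mean of 7.62 CPM, and its counts ran from 24 to 381 over the libraries. In Rv1-WT in FBS, ELF5 stood at 9.70, 8.63 and 8.82 CPM under vehicle and 18.7, 16.9 and 15.9 CPM under SNX631, a 1.89-fold rise (FDR = 1.0e-11 by edgeR). In Rv1-Luc in CSS it went from 1.37, 1.08 and 1.34 CPM to 4.36, 3.24 and 3.73 CPM, or 2.95-fold (FDR = 1.9e-12 by edgeR). ELF5 was called under SNX631 in all 6 settings with an active kinase and in neither kinase-dead line (FDR = 0.71 in dKO-8M and 0.94 in dKO-19M by edgeR). The group means used to pick ELF5 hold these same libraries, so its likeness to EHF in these calls is a description only.

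**Figure D5:**
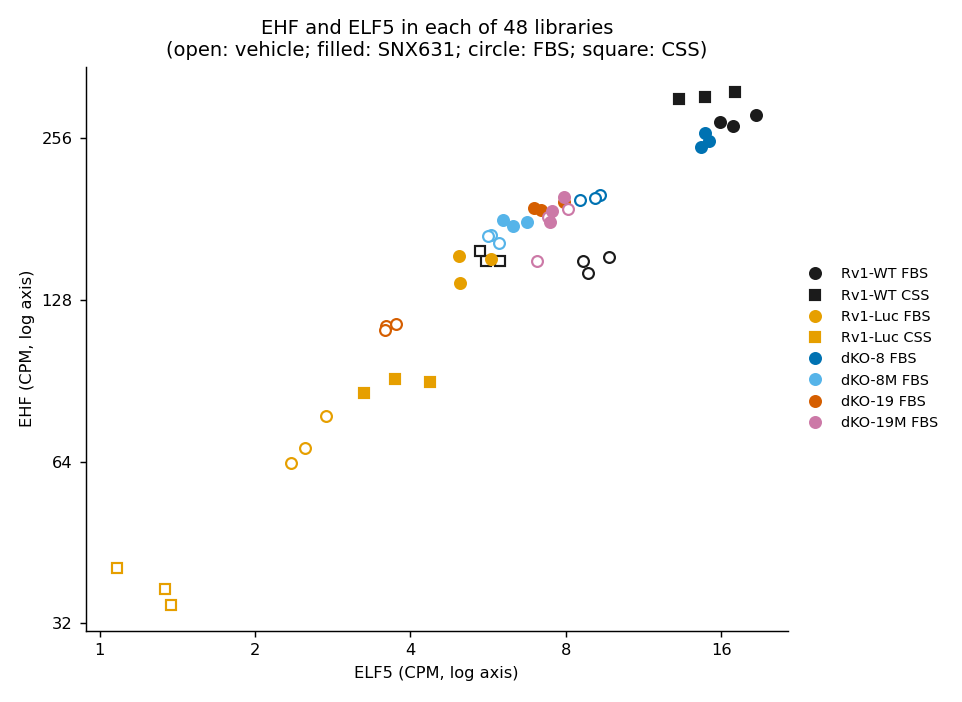
EHF against ELF5 in CPM (both axes logarithmic) in each of the 48 libraries, with open points for vehicle, filled points for SNX631, circles for FBS and squares for CSS. The libraries run from about 1.08 CPM of ELF5 in Rv1-Luc in CSS under vehicle to 18.7 CPM in Rv1-WT in FBS under SNX631, with EHF rising alongside.

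The ratio of EHF to ELF5 CPM lay between 15.2 and 37.4 in all libraries. The 2 genes parted in the serum comparison in Rv1-WT under vehicle, where ELF5 fell by 0.67 on the log2 scale (FDR = 4.2e-07 by edgeR) and EHF was at log2 0.04. They also parted in size in dKO-8, where SNX631 raised ELF5 1.66-fold and EHF 1.28-fold. Genes most like the other members were BNIP2 for FOXA1 (0.94), CENATAC-DT for HOXB13 (0.87), ZDHHC8P1 for GATA2 (0.96), STN1 for GRHL2 (0.96) and CTDSPL for SPDEF (0.92), each by the same correlation over 16 group means. The next genes were PCIF1 and NCOA5 for FOXA1, FAM110B and NXPE3 for HOXB13, ID2 and SEMA3C for GATA2, ECD and FOSL2 for GRHL2, ERGIC1 and TIMM10B for SPDEF, and UTP15 and RFC3 for EHF.

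Other genes of these pathways were described from lists of relatives, of other transcription factors and coregulators of prostate cells, and of epithelial genes under GRHL2 or ETS control. Of 24 transcription factors and coregulators tested, SNX631 in Rv1-WT in CSS raised 5 and lowered 8 at the FDR limit (17.6% of all genes), with a median of log2 -0.02. MYC, a growth-promoting leucine zipper factor, was among those that rose, 1.72-fold (FDR = 8.7e-20 by edgeR). It was not called higher in Rv1-Luc in FBS, dKO-8 or dKO-19. There 0 of the 24 factors were called higher (3.67%, 1.71% and 3.41% of all genes were called in either direction). In dKO-19, NFIX and CEBPB, which encode a nuclear factor I protein and a leucine zipper factor, fell by 0.85 and 0.80 on the log2 scale. These were the 2 calls among the 24 factors in dKO-19 (3.41% of all genes), where the median of the list was log2 -0.09 and that of all genes 0.00. In dKO-8 the 1 call was CEBPB (1.71% of all genes), which fell by 0.83 on the log2 scale, and in dKO-8M and dKO-19M 0 of 24 were called (0.015% and 0.09%).

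Of 16 epithelial genes, SNX631 called 0 in Rv1-WT in FBS (2.39% of all genes). CLDN4, a tight junction claudin, rose 1.65-fold in Rv1-Luc in FBS and in dKO-8, and 1.78-fold in Rv1-WT in CSS. KRT7, a simple-epithelial keratin, rose 1.57-fold in Rv1-Luc in FBS (FDR = 0.0037 by edgeR). CLDN7, another claudin, fell by 0.61 on the log2 scale in Rv1-WT in CSS and by 0.64 in Rv1-Luc in CSS. At the FDR limit, 2 of the 16 genes rose and 4 fell in Rv1-WT in CSS (17.6% of all genes), and 0 rose and 4 fell in dKO-19 (13.2%). CDH1, the main epithelial cadherin, was called in no comparison of SNX631 with vehicle. In the serum comparison in Rv1-WT under vehicle, where GRHL2 rose, ESRP1, an epithelial splicing regulator, rose 2.22-fold and KRT7 1.66-fold, while CLDN4 fell by 0.97 and PRSS8 by 0.67 on the log2 scale. Of the 16 genes, 2 rose with a call and 2 fell with a call (10.9% of all genes), and the median was log2 0.00 against 0.01 for all genes.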

How the data were processed

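RNA-Seq of 48 libraries in 16 groups of 3 was taken as 1 table of estimated counts per gene, as the authors deposited it (81.6% of values above 0 were whole; the rest were fractional). The submitters' processing notes name FastQC, cutadapt 2.8, STAR 2.7.2b, featureCounts, Subread 2.0.3 and the builds GRCh38.p13 and GRCm39. The kit was directional; the counting strand and annotation release are not given in the sources used here. Counts were rounded, the luciferase and blasticidin rows left out, and filterByExpr (minimum count 10, minimum total 15) and TMM scaling applied in edgeR 4.0.16 (R 4.3.3), which tested 23 comparisons in 1 quasi-likelihood fit with 32 residual degrees of freedom. The p-values measure the spread between these cultures. Replicate pairs differed by more than sampling noise (chi-square per degree of freedom 1.27 to 16.5, with the 2 highest values for replicate 1 of dKO-19M under vehicle). The counts of HOXB13 were fractional in 18 of 48 libraries and those of SPDEF in 8. FOXA1 shares 16 exon bases with TTC6 and GRHL2 shares 50 with AP001207.3, both on the opposite strand.

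The members and lists were chosen with earlier results of these data known. Named genes are the members, list genes called in the comparison discussed (at most 5 per list, lowest p first; CDH1 was added after its values were seen), and the 3 genes most like each member. Positions and exon lengths are from GENCODE 29 and promoters from RefSeq. Counts were simulated for SNX631 in Rv1-WT in FBS, with the same spread for every gene. The fit recovered 100% of genes changed 2-fold and 3-fold. Smaller changes, and a wide spread such as that of GATA2, were not simulated. DESeq2 1.42.0, other scalings and filters, and leaving out each library were tried as alternatives. Some list genes are not reported here.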

Additional observations from a re-analysis of the deposited data

Results flagged for a closer look

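In 3 results a member's effect differed between lines by a test of the difference itself and by more than 1.5-fold. The effect of CSS against FBS under vehicle differed between Rv1-Luc and Rv1-WT by log2 -0.94 for EHF and by log2 0.76 for SPDEF. EHF fell by 0.91 on the log2 scale in Rv1-Luc and was at 0.04 in Rv1-WT, and SPDEF stood at 0.41 in Rv1-Luc and -0.36 in Rv1-WT. The effect of SNX631 on EHF in dKO-19 exceeded that in dKO-19M by log2 0.63, from 0.74 and 0.11. Replicate 1 of dKO-19M under vehicle stood apart over all genes and was the lowest of its group for EHF, at 151 CPM against 189.6 and 183 CPM, and the last difference was 0.72 without it.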

How the results depend on the processing

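None of the 138 tests of a member reversed the direction of a call under the 9 other settings or with a library left out. With FDR < 0.05 and no fold limit, the members counted rose to 5 in Rv1-WT in either serum, 6 in Rv1-Luc in either serum, 4 in dKO-8 and 6 in dKO-19 under SNX631. By that rule they were 4 for serum in Rv1-WT under vehicle and under SNX631, 3 and 2 for serum in Rv1-Luc, and 4, 5, 4 and 4 for the 4 comparisons of lines. For differences of effects they were 2 each for serum in Rv1-WT, for Rv1-Luc minus Rv1-WT and for dKO-8 minus dKO-8M, 4 for dKO-19 minus dKO-19M, 3 for dKO-19 minus dKO-8 and 4 for serum by subline. Tested against 1.5-fold itself (glmTreat), counts fell to 1 for SNX631 in Rv1-Luc in CSS, 0 in dKO-19, 0 for serum in Rv1-Luc under SNX631, 1 for dKO-8M, 0 for dKO-19M, 0 for dKO-19 minus dKO-19M and 1 for serum by subline. The share of all genes was not worked out under either rule. These counts therefore show how the calls depend on the rule and nothing particular to the members. GATA2 made 2 members called in Rv1-WT in CSS under RLE scaling and under DESeq2, 2 for dKO-19 minus dKO-19M with no filter or with only the compared libraries, and left 1 in Rv1-Luc in CSS with only the compared libraries. GRHL2 passed the fold limit for serum by subline with library size as the only scaling or with only the compared libraries. The cause of these changes was not tested. Leaving out 1 library gave 1 to 2 members for SNX631 in Rv1-WT in CSS, Rv1-Luc in FBS and Rv1-Luc in CSS, 1 to 2 for dKO-19M against dKO-19, 0 to 1 for dKO-19 minus dKO-19M and 2 to 3 for serum by subline. Replicate numbers did not pair the libraries (0 of 16 comparisons had every same-number correlation above the limit), and the fit with a replicate block changed no call, with 1 member called for SNX631 in Rv1-WT in FBS as before. Depth was 13.2 M counts or more per library, and the lowest count of any member was 691.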

Other observations

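Among 24 tested relatives of the members, SNX631 called 4 in Rv1-WT in FBS (2.39% of all genes), all higher: HOXA13, ELF5, GATA3 and TFCP2. HOXA13, a posterior homeobox paralog of HOXB13, went from a mean of 2.50 to 10.7 CPM (4.30-fold, FDR = 2.4e-15 by edgeR), and GATA3, a paralog of GATA2 known from luminal epithelia, went from 6.84 to 12.4 CPM (1.80-fold, FDR = 1.7e-06 by edgeR). HOXA13 rose 5.98-fold in Rv1-WT in CSS, 2.96-fold and 5.15-fold in Rv1-Luc in FBS and CSS, and 3.32-fold in dKO-19. In dKO-8 only ELF5 was called among the 24 (1.71% of all genes), and in dKO-8M and dKO-19M 0 of 24 were (0.015% and 0.09%). ELF3 nonetheless fell by 0.34 on the log2 scale in dKO-19M (FDR = 0.0038 by edgeR), under the fold limit.

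ELF3, an epithelial ETS relative of EHF, responded to serum in opposite directions in the sublines. Under vehicle it rose 1.65-fold in CSS in Rv1-WT, from 63.9 to 105 CPM (FDR = 3.5e-10 by edgeR), and fell by 0.35 on the log2 scale in Rv1-Luc (FDR = 0.0016 by edgeR). The difference of the effects was log2 -1.07 (SE 0.11, FDR = 3.0e-10 by edgeR). GATA3 rose in CSS in both sublines, 1.76-fold in Rv1-WT and 1.77-fold in Rv1-Luc.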
